A study of Mus musculus with 5 samples.

Results

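Fatty acid oxidation was followed through 37 genes, listed by symbol as enzymes, carriers and regulators of mitochondrial and peroxisomal fatty acid breakdown, out of 32285 genes counted in each library. The list was drawn up from gene function, but with earlier results of these data known, so it was not blind to them. All 37 genes were present in the 5 libraries. By role they comprised 3 regulators, 9 genes of activation and transport, 11 of the mitochondrial spiral, 3 of electron transfer, 8 peroxisomal genes and 3 of omega oxidation.

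The libraries came from whole kidneys of wild-type male C57BL/6 mice, 8 to 10 weeks old, digested with collagenase and captured in droplets with a 3' kit. Aristolochic acid I (AAI), a plant toxin that is taken up by the proximal tubule and injures it, was injected into the abdomen at 3 mg/kg every 3 days. The AKI group (2 libraries) was taken at week 2, at the end of the injections, and the CKD group (2 libraries) at week 4, after an interval without toxin. The control group (1 library, week 0) received vehicle. Nothing used here ties a library to a single animal, so the p-values below measure the spread between libraries, and the single control library was assumed to vary like the others.

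Fatty acid oxidation is the main source of ATP in the proximal tubule. Fatty acids enter the cell through carriers, are activated to acyl-CoA, and pass into mitochondria by the carnitine shuttle, whose entry enzyme is Cpt1a. In the mitochondrial spiral each turn dehydrogenates, hydrates, dehydrogenates again and cleaves the chain, and the electrons of the first step reach the respiratory chain through the electron transfer flavoprotein. Peroxisomes shorten very long and branched chains, and microsomal Cyp4a enzymes oxidise the omega end. Ppara, a nuclear receptor for fatty acids, and its coactivator Ppargc1a drive transcription of many of these genes. Loss of this programme in tubular cells is a known feature of kidney injury and fibrosis.

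Ppara binds DNA as a pair with its partner RXR at direct repeats of the letters AGGTCA with 1 base between. The promoters of the genes were searched for this repeat on both strands, from 250 bases before to 50 bases after each start (RefSeq, build GRCm38.p6). An entry was found for 32 of the 37 genes. Those without one were Acaa2, Decr1, Hsd17b4, Cyp4a10 and Cyp4a14. No promoter of these genes held the exact repeat, which was present in 0.0481% of 27025 gene promoters. With at most 2 mismatches, 4 of 32 genes (12.5%) held a match, against 4.40% of all genes. These were Acot12, Echs1, Etfa and Slc25a20, the last with its match after the start. The HNF4 element, with at most 2 mismatches, was found in 62.5% of the 32 genes and in 61.9% of all genes.

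The 250 bases before the start are printed for the genes whose match lies before the start, with the match in capitals, because Echs1 and Etfa fell in the tubular cells described below and Acot12 held the closest match (1 mismatch, against 2 in Echs1 and Etfa). Hadhb is printed because Hadha and Hadhb, the 2 subunits of the trifunctional protein, start head to head with 272 bases between their starts. Capitals in Hadhb mark the 228 bases that also lie within the 250 bases before the start of Hadha. Echs1 is read from chr7:140116422-140116671 on the minus strand, Etfa from chr9:55512244-55512493 on the minus strand, Acot12 from chr13:91741271-91741520 on the plus strand and Hadhb from chr5:30155003-30155252 on the plus strand.
Echs1: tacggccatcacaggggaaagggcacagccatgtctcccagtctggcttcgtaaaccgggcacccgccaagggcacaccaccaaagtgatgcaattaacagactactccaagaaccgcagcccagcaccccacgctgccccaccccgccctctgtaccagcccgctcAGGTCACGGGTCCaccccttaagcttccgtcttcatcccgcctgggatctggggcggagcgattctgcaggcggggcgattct
Etfa: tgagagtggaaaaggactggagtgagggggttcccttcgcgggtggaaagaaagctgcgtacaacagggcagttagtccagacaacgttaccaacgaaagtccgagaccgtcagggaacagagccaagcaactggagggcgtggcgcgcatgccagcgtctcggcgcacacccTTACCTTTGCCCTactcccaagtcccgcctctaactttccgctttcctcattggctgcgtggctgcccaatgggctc
Acot12: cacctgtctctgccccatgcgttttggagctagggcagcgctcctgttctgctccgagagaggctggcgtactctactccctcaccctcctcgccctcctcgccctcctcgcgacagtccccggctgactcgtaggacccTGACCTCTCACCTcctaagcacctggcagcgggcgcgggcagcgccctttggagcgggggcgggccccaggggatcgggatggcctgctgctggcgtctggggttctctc
Hadhb: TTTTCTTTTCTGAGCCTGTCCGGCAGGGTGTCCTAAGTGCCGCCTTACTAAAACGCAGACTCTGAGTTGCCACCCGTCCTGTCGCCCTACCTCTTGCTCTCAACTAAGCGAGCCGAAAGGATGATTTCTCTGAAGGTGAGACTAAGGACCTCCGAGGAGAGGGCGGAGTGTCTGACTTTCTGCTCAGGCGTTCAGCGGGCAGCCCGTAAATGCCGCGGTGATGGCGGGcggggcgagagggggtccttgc

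After filters, 53718 of 72896 cell barcodes remained, 8496 to 16330 per library, holding 55256965 to 79630825 UMIs (unique molecular identifiers, each counting 1 captured RNA molecule). Barcodes with over 30% mitochondrial UMIs had been more frequent in the control (38.7%) than in AKI and CKD (from 11.1 to 12.7%). Clusters were named by marker genes, and a name ending in -like marks only a resemblance. Proximal tubule-like (PT-like) cells numbered 4583, with 920 in the control, 473 and 478 in AKI and 2386 and 326 in CKD. Where 2 values are given for AKI or CKD, that of library 1 comes first. Levels are given as UMIs of a gene per 10000 UMIs of the cells of a class in a library. The 10 PT markers summed to between 45.3 and 56.4 per 10000 in PT-like cells and to between 0.322 and 2.74 in T lymphocyte-like cells, a type without these transcripts, where they measure free RNA.

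PT-like cells came from 4 clusters that took unequal shares of the libraries. A deep cluster led by Spink1, Slc13a1 and Slc4a4 held 38.5% of the PT-like UMIs in the control, 82.4% and 86.2% in AKI and 57.3% and 69.4% in CKD. A cluster led by Miox, Akr1c21 and Gsta2 held 38.6% in the control and from 5.14 to 10.6% elsewhere, and one led by Gm26917, Snhg11 and Mlxipl held 21.7% in the control and from 6.15 to 17.6% elsewhere. The fourth, led by Dnase1, Guca2b and Ugt2b38, drew 919 of its 972 cells from CKD 1. Its RNA of 5 macrophage genes was 24.2 per 10000 in CKD 1, against 0.956 in the deep cluster of the same library. In the Miox-led cluster these genes summed to 0.169 in the control, 2.67 and 6.66 in AKI and 8.07 and 0.613 in CKD. There 5 T lymphocyte genes summed to 8.95 in CKD 1 and 1.74 in CKD 2. The PT markers summed to between 12.9 and 26.1 in the Miox-led cluster, against 45.7 to 66.3 in the deep one. Results in PT-like cells are therefore also given within clusters and without the fourth.

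Of 14 cell classes compared, PT-like cells had the highest mean level of 23 of the 37 genes, and in 15 of these they exceeded the second class in all 5 libraries. Ppara, Slc27a2, Acsm2, Acot12, Ehhadh, Cyp4a10 and Cyp4a14 were the clearest cases. Slc27a2, which takes up and activates very long chain fatty acids, averaged 5.06 per 10000 in PT-like cells and 0.280 in the next class, the cells resembling the thick ascending limb (TAL-like). Acsm2, a medium-chain acyl-CoA synthetase, averaged 11.8 and 0.644 in these classes, and T lymphocyte-like cells held 0.119 of Slc27a2 and 0.323 of Acsm2. The genes were not all proximal: Ppargc1a (1.61) and Cpt1a (1.97) averaged highest in cells resembling the distal convoluted tubule (DCT-like), and Hadha (2.07), Hadhb (1.85) and Etfa (2.36) in those resembling collecting duct intercalated cells (CD IC-like).

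**Figure D1:**
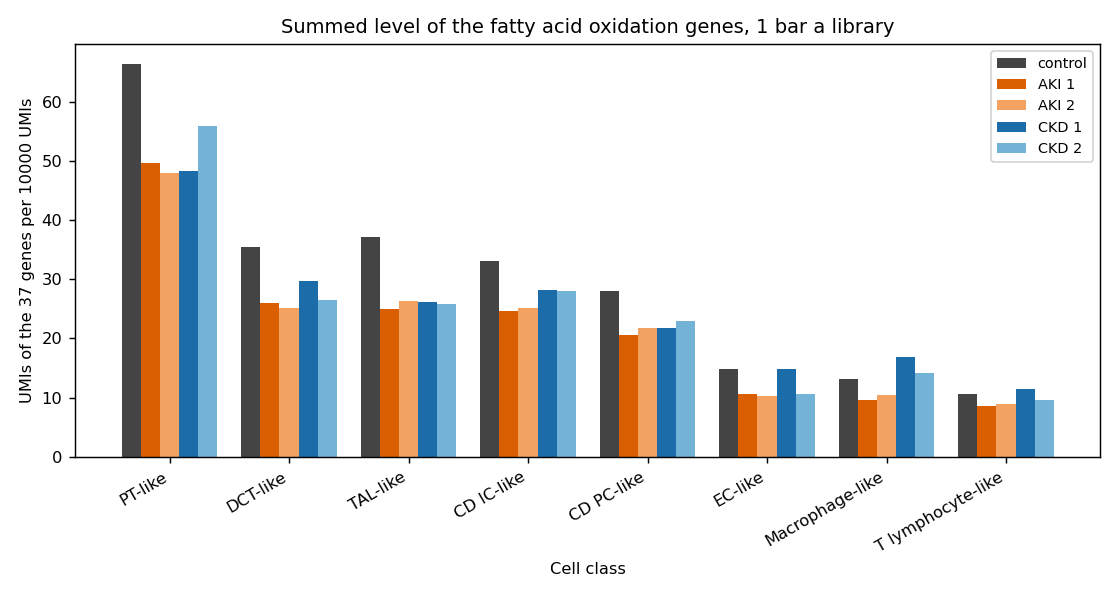
Summed level of the 37 genes in UMIs per 10000 UMIs (y axis) in 8 cell classes (x axis), 1 bar a library. PT-like cells were highest in every library, from 47.9 in AKI 2 to 66.4 in the control. T lymphocyte-like cells held 10.7 in the control, 8.58 and 8.92 in AKI and 11.4 and 9.56 in CKD. The control was above both AKI libraries in every class drawn.

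Summed over the 37 genes, PT-like cells held 66.4 per 10000 in the control, 49.6 and 47.9 in AKI and 48.3 and 55.9 in CKD. The control was above all 4 toxin libraries, and the CKD pair reached from within the AKI pair to above it. Within the deep cluster the levels were 69.0, 51.2, 49.3, 57.5 and 56.9 in the same order, so that both CKD libraries lay between AKI and control there. The other clusters did not share this order. In the Miox-led cluster the sum was 72.8 in the control, 49.9 and 41.5 in AKI and 37.2 and 52.5 in CKD, with CKD 1 below both AKI libraries. In the Gm26917-led cluster it was 51.2 in the control, 38.7 and 36.9 in AKI and 47.5 and 56.5 in CKD, with CKD 2 above the control. The sum weighs abundant genes most, and single genes went in both directions.

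The first comparison, AKI against control, asks how the programme stood at the end of the injections. The control library also had more barcodes over 30% mitochondrial UMIs (38.7%, against 11.1 to 12.7%), and its pipeline may have differed. With 1 control library these differences cannot be told apart from the toxin, here or in CKD against control. In PT-like cells all 37 genes could be tested. The thiolase Acaa2 and the acyl-CoA synthetase Acsl1 fell most, together with Hadh, Echs1 and both subunits of the electron transfer flavoprotein, while Pdk4, Cyp4a10 and Cyp4a14 rose. In all, 6 genes fell and 3 rose at a false discovery rate of 0.05, against 8.78% of the 12719 genes tested (5.54% higher and 3.25% lower). The median log2 fold change was -0.42 for the 37 genes and 0.00 for all genes tested. Both AKI libraries lay below the control for 27 of the 37 genes (36.8% of all genes tested did so) and above it for 8 (47.7%).

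**Figure D2:**
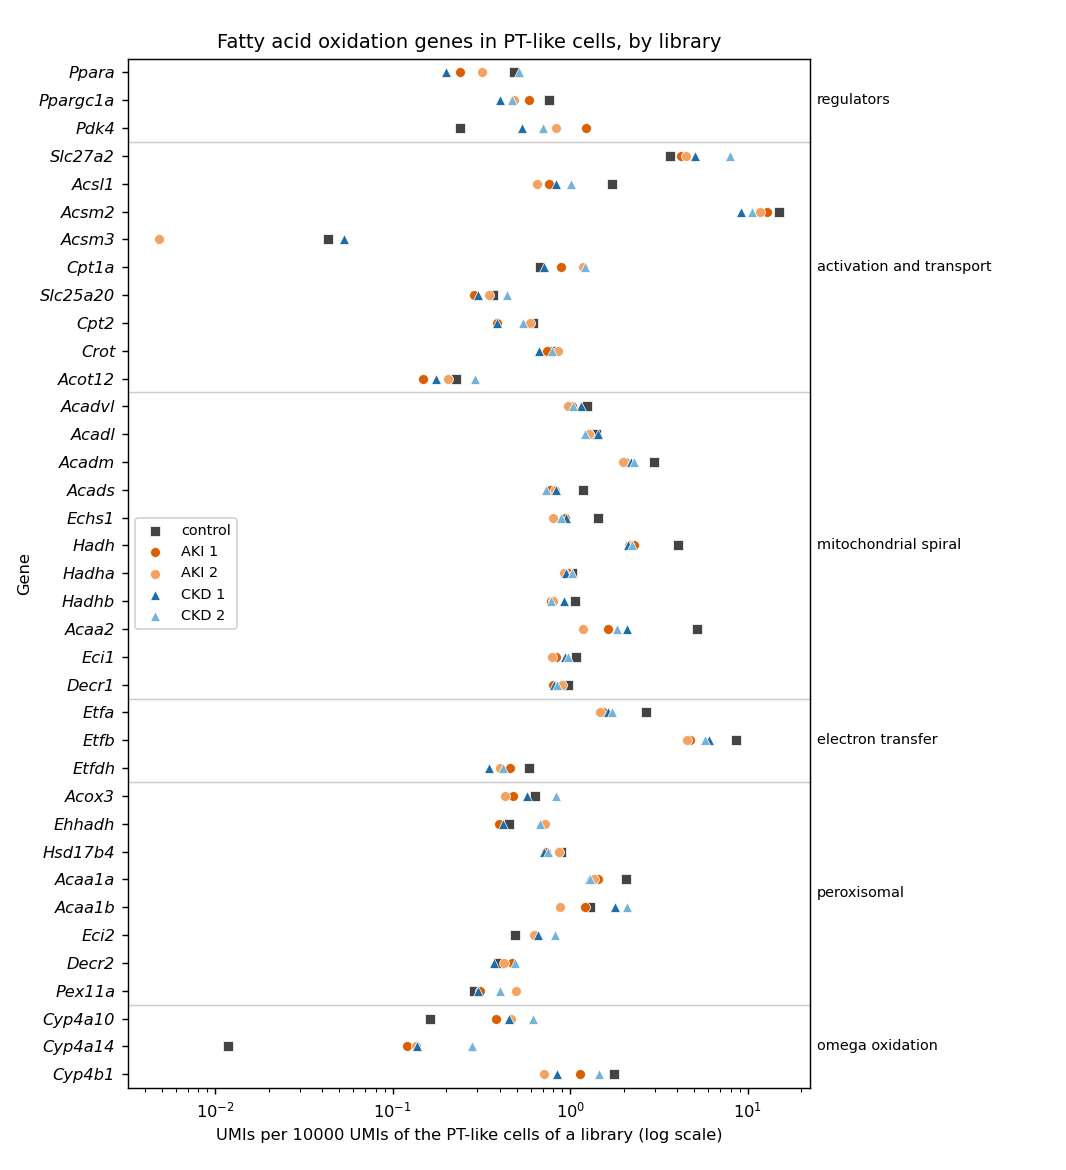
Level of each gene in PT-like cells (x axis, UMIs per 10000 UMIs, log scale), 1 point a library, with genes grouped by role (y axis). Levels of 0 (Acsm3 in AKI 1 and CKD 2) are not drawn. The control square lies to the right of the other 4 libraries for Acaa2, Hadh, Etfa, Etfb and Acsl1, and to their left for Pdk4, Cyp4a10 and Cyp4a14.

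Among the regulators, Ppara measured 0.480 per 10000 in the control, 0.239 and 0.318 in AKI and 0.199 and 0.516 in CKD. The CKD libraries lay at the opposite ends of this range, and Ppara was not called in any comparison (log2 fold change of AKI against control -0.88, SE 0.47, adjusted p = 0.280). Ppargc1a measured 0.755 in the control, 0.589 and 0.482 in AKI and 0.402 and 0.469 in CKD. All 4 toxin libraries were below the control, with adjusted p = 0.122 for AKI and adjusted p = 0.0576 for CKD against control. Without the cluster mostly from CKD 1, the latter passed (adjusted p = 0.0290). Pdk4, the kinase that shuts pyruvate dehydrogenase and so spares glucose, measured 0.239 in the control, 1.23 and 0.831 in AKI and 0.534 and 0.705 in CKD. Every toxin library was above the control, and Pdk4 rose by 2.00 on the log2 scale in AKI (SE 0.31, adjusted p = 0.0113).

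Of the 9 genes of activation and transport, 1 was called. Acsl1, the main long-chain acyl-CoA synthetase, measured 1.71 per 10000 in the control, 0.757 and 0.651 in AKI and 0.827 and 1.01 in CKD. The control stood apart from the other 4 libraries, and the log2 fold change of AKI against control was -1.39 (SE 0.21, adjusted p = 0.0106). Cpt1a, the entry step of the carnitine shuttle, was 0.678 in the control, 0.883 and 1.17 in AKI and 0.713 and 1.20 in CKD, and did not pass (log2 0.51, SE 0.34, adjusted p = 0.388). The most abundant gene of the group, Acsm2, measured 15 in the control and 11.8 to 12.8 in AKI (adjusted p = 0.303). Acsm3 rested on 22 UMIs in the control, 0 and 3 in AKI and 62 and 0 in CKD, so no change is read from it. The other fitted changes of the group, those of Slc27a2, Slc25a20, Cpt2, Crot and Acot12, lay between -0.46 and 0.16 on the log2 scale.

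All 11 genes of the mitochondrial spiral had a log2 fold change below 0 in AKI, from -1.99 to -0.22, and 3 were called. Acaa2, which cleaves the shortened chain, measured 5.19 per 10000 in the control, 1.63 and 1.18 in AKI and 2.10 and 1.83 in CKD. The control was more than any other library, and Acaa2 had the smallest adjusted p of the 37 genes (log2 -1.99, SE 0.24, adjusted p = 0.0049). Hadh, the dehydrogenase for medium and short 3-hydroxyacyl chains, measured 4.04 in the control, 2.29 and 2.15 in AKI and 2.13 and 2.22 in CKD. The toxin libraries were nearly level with each other and all below the control (log2 -0.97, SE 0.20, adjusted p = 0.0294). Echs1, the short-chain enoyl-CoA hydratase, measured 1.44 in the control, 0.931 and 0.802 in AKI and 0.95 and 0.888 in CKD (log2 -0.83, SE 0.20, adjusted p = 0.0459). The acyl-CoA dehydrogenases Acadm (log2 -0.65, adjusted p = 0.0892) and Acads (log2 -0.67, adjusted p = 0.0953) did not pass.

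Both subunits of the electron transfer flavoprotein fell. Etfb measured 8.61 per 10000 in the control, 4.72 and 4.53 in AKI and 6.02 and 5.73 in CKD. Its partner Etfa measured 2.67, 1.52, 1.48, 1.62 and 1.73 in the same libraries. In both genes the AKI pair was lowest and the CKD pair lay between AKI and control, and the changes of AKI against control were alike in size (Etfb log2 -0.996, SE 0.21, adjusted p = 0.0302, and Etfa log2 -0.93, SE 0.20, adjusted p = 0.0320). Etfdh, which passes the electrons on to ubiquinone, had a log2 fold change of -0.54 (SE 0.21, adjusted p = 0.152).

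None of the 8 peroxisomal genes was called in AKI, and 4 of them lay above 0 and 4 below (log2 -0.65 to 0.39). The 2 peroxisomal thiolases differed in pattern. Acaa1a measured 2.05 per 10000 in the control, 1.43 and 1.36 in AKI and 1.28 and 1.30 in CKD, whereas Acaa1b measured 1.29 in the control, 1.22 and 0.881 in AKI and 1.79 and 2.09 in CKD. Acaa1a stayed low in CKD and Acaa1b was highest there. The genes are near-identical copies, so reads may be split or lost between them. Of omega oxidation, Cyp4a10 measured 0.162 in the control, 0.380 and 0.461 in AKI and 0.452 and 0.617 in CKD (log2 1.28 in AKI, SE 0.29, adjusted p = 0.0387). Cyp4a14 measured 0.0119 in the control, from 6 UMIs, 0.12 and 0.135 in AKI and 0.138 and 0.280 in CKD (log2 3.31, SE 0.63, adjusted p = 0.0218). Every toxin library was above the control for both, and these paralogs too share sequence, so a rise of one may carry reads of the other. The omega oxidation gene Cyp4b1 measured 1.77 in the control and 1.13 and 0.714 in AKI and was not called (adjusted p = 0.102).

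Of the 9 genes called in AKI, 7 were also called within the deep PT-like cluster alone, in which 11 of the 37 passed (11.5% of all genes did). Echs1 was not among them (log2 -0.26, adjusted p = 0.420), nor was Cyp4a10 (log2 0.71, adjusted p = 0.0805). Without the cluster mostly from CKD 1 all 9 were called, among 11, while 16.9% of all genes passed there. The count was sensitive to single libraries: it was 3 without AKI 1, 1 without AKI 2 (Pdk4), 20 without CKD 1 and 18 without CKD 2, the latter pair entering only through the shared estimate of the spread, and it was 1 (Acaa2) when cells were thinned to 1000 UMIs. In every one of these fits the 9 genes had the same sign. Summed RNA of 8 tubular injury genes in PT-like cells was 8.18 per 10000 in the control, 169 and 256 in AKI and 114 and 92.8 in CKD, and that of 8 stress genes was 19.6, 71.7, 47.0, 47.2 and 39.1. Most of the injury sum was Spp1, with 7.55 in the control, 162 and 250 in AKI and 107 and 88.5 in CKD. The rest were also above the control in every toxin library, except Clu in CKD 2 (0.368, against 0.452 in the control). The part of injury and stress RNA in the changes of the oxidation genes was not tested.

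**Figure D3:**
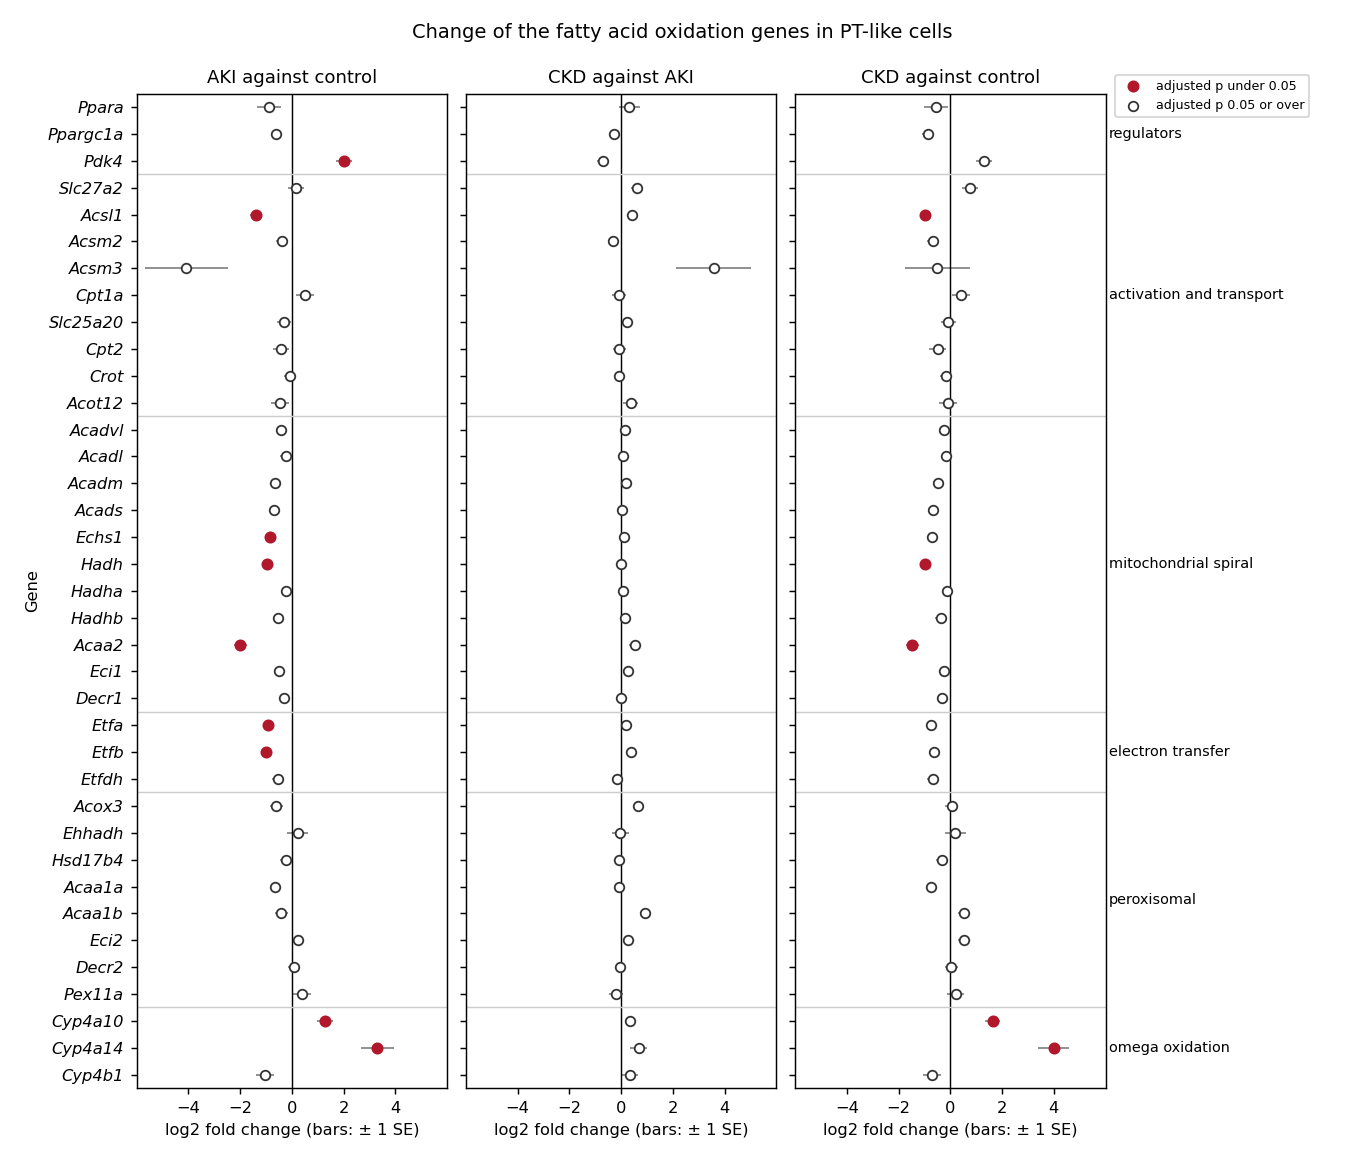
Log2 fold changes in PT-like cells (x axis, bars ± 1 SE) of the 37 genes (y axis, grouped by role) in 3 comparisons. Filled points have an adjusted p under 0.05: 9 in AKI against control, 0 in CKD against AKI and 5 in CKD against control. The comparisons share libraries, so the panels are not independent.

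CKD against AKI asks whether the genes recovered or fell further once the toxin had been stopped. In PT-like cells 0 of the 37 genes passed (edgeR's quasi-likelihood test), 6 had an unadjusted p under 0.05, and DESeq2 called 1, Acaa1b. Of all 12719 genes only 0.0786% passed. The median log2 fold change was 0.15 for the 37 genes and 0.04 for all genes. Acaa2 had a log2 fold change of 0.52 (SE 0.21, adjusted p = 0.413), Acsl1 of 0.42 (SE 0.18, adjusted p = 0.444), Etfb of 0.38 (SE 0.18, adjusted p = 0.467) and Hadh of 0.00 (SE 0.17, adjusted p = 0.995). No return to the control level and no further fall was detectable for these genes with 2 libraries a group. Pdk4 stood at -0.71 (SE 0.23, adjusted p = 0.342), which was the lowest value of the 37.

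The CKD libraries did not overlap with the AKI libraries in 16 genes, with both CKD libraries higher in 12 (18.4% of all genes tested) and lower in 4 (23.4%). Acaa1b had the smallest adjusted p (log2 0.93, SE 0.20, adjusted p = 0.232). It was called within the deep cluster (log2 1.00, adjusted p = 0.00748) and within the Gm26917-led cluster (log2 1.21, adjusted p = 0.0261), and had a log2 fold change of -0.13 (adjusted p = 1.00) in the Miox-led cluster. Acox3, a peroxisomal oxidase of branched chains, was also called in the deep cluster (log2 0.69, adjusted p = 0.0412), and Slc27a2 in the Gm26917-led one (log2 1.08, adjusted p = 0.0371). Without CKD 1 5 genes passed and without CKD 2 4, with Acaa1b in both. Within the deep cluster 1.22% of all genes passed and within the Gm26917-led one 1.70%. In simulated data for this comparison over 12312 genes, 19% of genes changed 2-fold and 84% of those changed 4-fold were recovered.

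CKD against control, which shares the control with the first comparison, called 5 of the 37 genes, against 5.70% of all genes (4.21% higher and 1.49% lower). Both CKD libraries lay below the control for 20 genes (33.0% of all genes) and above it for 8 (42.4%). Acaa2 (log2 -1.46, SE 0.24, adjusted p = 0.0193), Acsl1 (log2 -0.97, SE 0.21, adjusted p = 0.0431) and Hadh (log2 -0.96, SE 0.20, adjusted p = 0.0377) fell. Cyp4a10 (log2 1.64, SE 0.30, adjusted p = 0.0265) and Cyp4a14 (log2 3.99, SE 0.62, adjusted p = 0.0154) rose. Pdk4 had a log2 fold change of 1.29 and missed the threshold (adjusted p = 0.0519), and so did Etfa (log2 -0.74, adjusted p = 0.0742). The median was -0.31, against 0.02 for all genes. The count was 2 without either AKI library, 16 without CKD 1, 14 without CKD 2, 10 without the cluster mostly from CKD 1 (10.3% of all genes) and 0 with cells thinned to 1000 UMIs.

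Beyond the 37 genes, 75 other genes of lipid, ketone and branched-chain breakdown were listed, and 70 could be tested in PT-like cells. In AKI against control, 12 fell and 1 rose, against 8.78% of all genes tested (5.54% higher and 3.25% lower). The mitochondrial thiolase Acat1 fell most clearly (log2 -1.90, SE 0.21, adjusted p = 0.0037), followed by Oxct1, which returns ketone bodies to use (log2 -1.36, adjusted p = 0.0117), and Ivd of leucine breakdown (log2 -1.31, adjusted p = 0.0141). Phyh (log2 -1.16, adjusted p = 0.0169), Scp2 (log2 -1.17, adjusted p = 0.0175) and Amacr (log2 -1.16, adjusted p = 0.0265), of peroxisomal branched-chain oxidation, fell as well, as did Pcca of propionate use (log2 -1.16, adjusted p = 0.0259). Acot1, an acyl-CoA thioesterase, rose (log2 1.07, SE 0.23, adjusted p = 0.0313). In CKD against AKI 0 of the 70 passed, 6 had an unadjusted p under 0.05 and DESeq2 also called 0. The lowest adjusted p there were 0.297 for Fabp5 (log2 2.63), 0.333 for Slc27a4 (log2 -0.69) and 0.337 for Acox2 (log2 0.95).

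Fatty acid oxidation genes also fell outside the proximal tubule. In DCT-like cells (131 to 1024 cells per library) 33 of the 37 genes could be tested in AKI against control, of which 14 fell and 1 rose, against 15.5% of all 11249 genes (9.21% higher and 6.29% lower). The median log2 fold change was -0.63, against 0.00 for all genes. Ppargc1a measured 2.50 per 10000 in the control, 1.42 and 1.30 in AKI and 1.48 and 1.35 in CKD (log2 -0.99 in AKI, SE 0.17, adjusted p = 6.1e-04). Acsl1 measured 1.54 in the control, 0.689 and 0.786 in AKI and 1.21 and 0.899 in CKD (log2 -1.19, SE 0.19, adjusted p = 4.1e-04). Ppargc1a stayed at the AKI level in both CKD libraries, whereas for Acsl1 both CKD libraries lay between AKI and control. The trifunctional protein subunits Hadha (log2 -0.79, adjusted p = 0.0049) and Hadhb (log2 -0.93, adjusted p = 0.0012), whose shared upstream stretch is printed above, both fell. Pdk4 rose (log2 0.88, adjusted p = 0.0050). With cells thinned to 1000 UMIs the count of 15 was 2 (Acadvl and Ppargc1a), against 4.69% of all genes. Leaving out AKI 1 lowered the count, and leaving out any other toxin library raised it. The share of all genes that passed was lower without either AKI library and higher without either CKD library. When barcodes were kept only up to 15% mitochondrial UMIs and clustered anew, edgeR called 0 of the 33 genes (8 at an unadjusted p under 0.05), against 4.46% of all genes. The class then held 394 control cells in place of 1024, 405 and 374 AKI cells in place of 333 and 247, and 762 and 137 CKD cells in place of 482 and 131. It was thus not a subset of the first class. DESeq2, run on the cells first described, called 9, against 6.56% of all genes. The 15 genes had the same sign in these fits wherever they could be tested.

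In TAL-like cells 8 of 34 genes fell in AKI and none rose, against 11.9% of all 12938 genes (5.0% lower), with a median of -0.51 against 0.00. Ppargc1a measured 2.99 per 10000 in the control, 1.11 and 1.24 in AKI and 0.993 and 1.00 in CKD, the steepest fall of the group (log2 -1.47, SE 0.21, adjusted p = 0.0059). Cpt1a measured 2.95 in the control, 1.31 and 1.22 in AKI and 1.60 and 1.59 in CKD (log2 -1.34, SE 0.22, adjusted p = 0.0093). Acadm, Acadvl, Echs1, Etfa, Hadha and Hadhb also fell, by 0.81 to 1.25 on the log2 scale. In CKD against control Ppargc1a (log2 -1.58, adjusted p = 0.0057) and Cpt1a (log2 -0.89, adjusted p = 0.0447) passed in TAL-like cells, against 9.07% of all genes. Ppargc1a also fell in cells resembling collecting duct principal cells (log2 -1.30 in AKI, SE 0.22, adjusted p = 0.0366), where 1.26% of all genes passed. With at most 15% mitochondrial UMIs the TAL-like count of 8 was 4, Ppargc1a and Cpt1a among them, against 5.57% of all genes. Leaving out either AKI library lowered the count, and leaving out either CKD library raised it. The share of all genes that passed moved the same way. All 8 genes had the same sign in each of these fits.

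Other RNA moved with these genes in distal tubule-like cells. The 37 genes summed to 33.4 per 10000 in the control, 24.2 and 24.8 in AKI and 26.3 and 26.4 in CKD. The 13 mitochondrially encoded genes summed to 1875 in the control, 1104 and 1127 in AKI and 1482 and 1135 in CKD. The control was the highest library for both sums. The 8 tubular injury genes summed to 27.3 in the control, 251 and 292 in AKI and 180 and 244 in CKD, and the 8 stress genes to 85.2, 126, 123, 74.3 and 112 in the same order. Injury RNA, a sum that weighs abundant genes most, was lowest in the control. Stress RNA was higher in both AKI libraries than in the control. The part of injury and stress RNA in the falls was not tested. PT markers, as a measure of free proximal RNA in distal cells, summed to 1.65 per 10000 in the control, 1.36 and 1.51 in AKI, 4.19 in CKD 1 and 0.989 in CKD 2. In DCT-like cells 8 genes were called in CKD against control (11.2% of all genes), and 2 of them, Slc27a2 and Acaa1b, were higher. Slc27a2 reached 0.404 in CKD 1 against 0.106 in CKD 2, in the order of the PT markers, and the part of free RNA in it was not tested.

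Whether PT-like and distal tubule-like cells changed differently was tested by an interaction. In CKD against AKI 0 of the 37 genes differed by edgeR, as did 0.0% of all genes, with 0 at an unadjusted p under 0.05 and 0 by DESeq2. In AKI against control 0 passed in edgeR as well, with 7 at an unadjusted p under 0.05, and 0.0208% of all genes passed. A fall called in one class and not in the other, as of Cpt1a, is therefore not shown to be particular to that class.

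**Figure D4:**
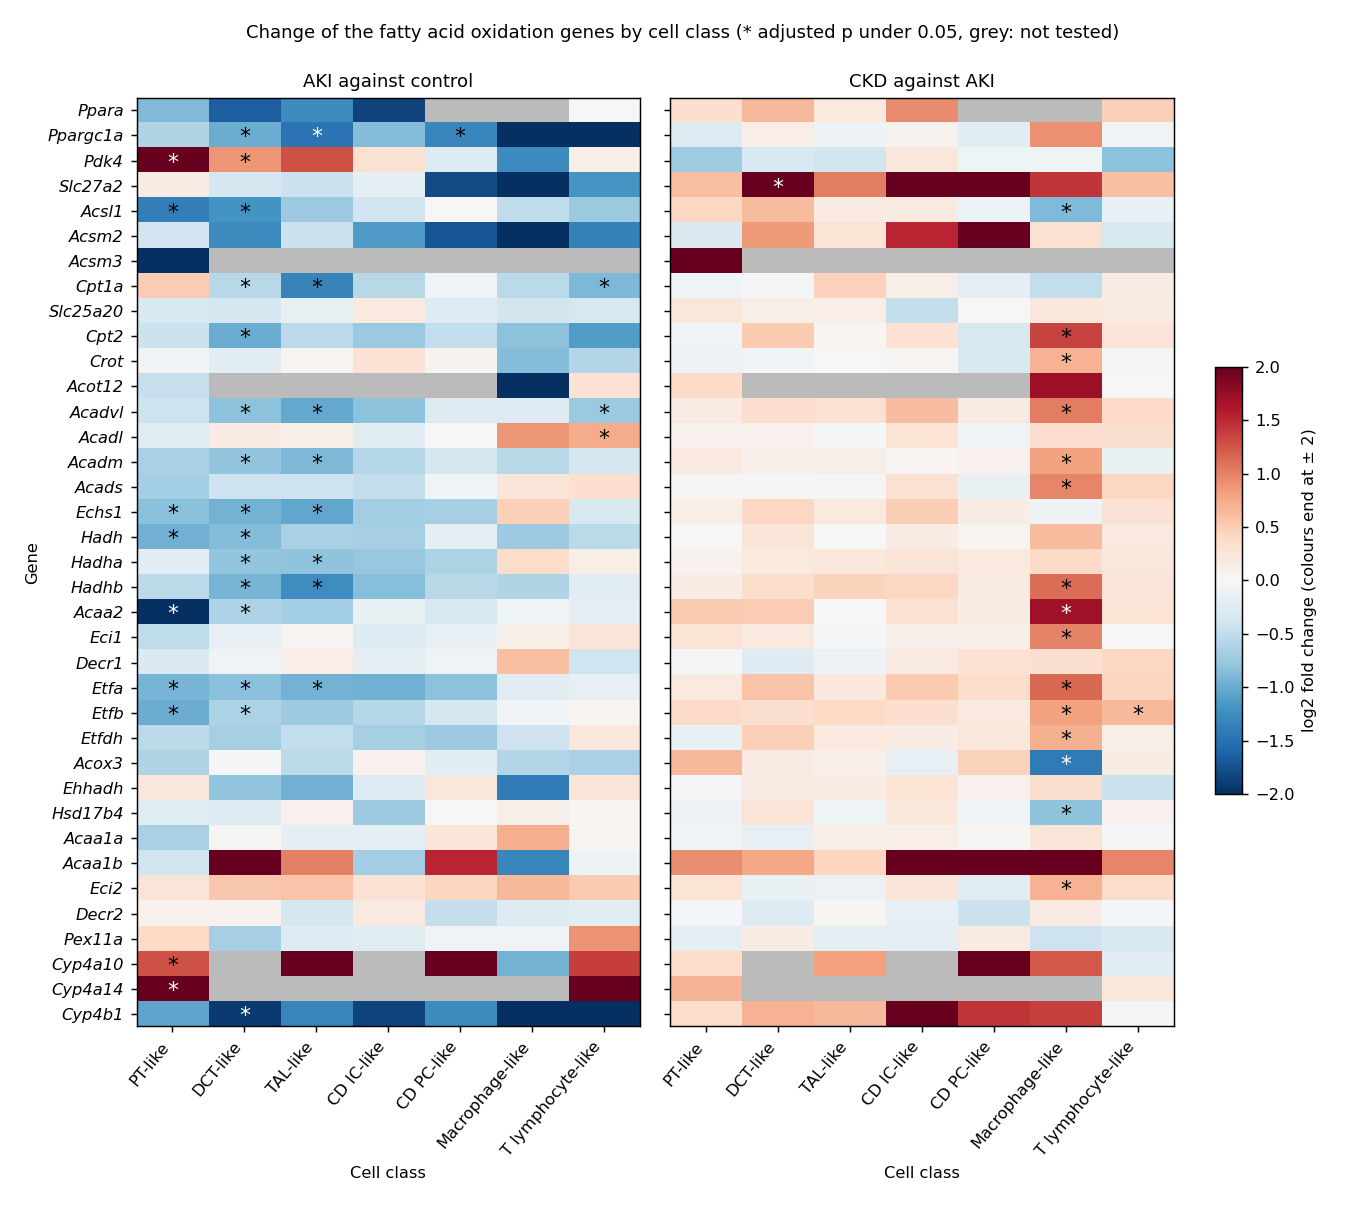
Log2 fold changes of the 37 genes (y axis) in 7 cell classes (x axis) for AKI against control (left) and CKD against AKI (right), with colours that end at ± 2 and a star where the adjusted p was under 0.05. Stars stand mostly in PT-like, DCT-like and TAL-like cells on the left and in macrophage-like cells on the right.

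Across the 15 classes other than PT-like cells, 17 calls were made in CKD against AKI, 15 of them in macrophage-like cells, 1 in DCT-like cells (Slc27a2, where 2.06% of all genes passed) and 1 in T lymphocyte-like cells (Etfb, where 7.57% did). DESeq2 made 14. In macrophage-like cells 12 of 34 genes rose and 3 fell, against 27.2% of all 13496 genes (12.8% higher and 14.4% lower), with a median log2 fold change of 0.70 against 0.05. Acaa2 measured 0.417 per 10000 in the control, 0.289 and 0.429 in AKI and 1.51 and 1.17 in CKD (log2 1.70, SE 0.22, adjusted p = 0.0055). Etfa measured 0.600 in the control, 0.458 and 0.482 in AKI and 1.30 and 1.09 in CKD (log2 1.16, SE 0.13, adjusted p = 0.0044). Both CKD libraries exceeded the other 3 for both genes. Hadhb (log2 1.12, adjusted p = 0.0050), Acads (log2 0.97, adjusted p = 0.0077), Acadvl (log2 1.02, adjusted p = 0.0079) and Eci1 (log2 1.00, adjusted p = 0.0097) rose too, as did Acadm, Cpt2, Etfb, Etfdh, Eci2 and Crot. Acox3 (log2 -1.41, adjusted p = 0.0101), Hsd17b4 (log2 -0.80, adjusted p = 0.0134) and Acsl1 (log2 -0.89, adjusted p = 0.0477) fell.

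These changes came with a change in the make-up of the class. Clusters with Ctsk among their leading genes, together with Mmp9, Acp5 and Ocstamp, which are known from osteoclasts, numbered 50 cells in the control, 37 and 73 in AKI and 1024 and 284 in CKD. The cluster led by Acp5, Ctsk and Mt3 drew 552 of its 566 cells from CKD 1 and 4 from CKD 2. The cluster led by Ctsk, Mmp9 and Acp5 held 45 cells in the control, 36 and 69 in AKI and 472 and 280 in CKD. Without the Ctsk-led clusters 0 of 33 genes passed in edgeR, 3 had an unadjusted p under 0.05, and 0.0341% of all genes passed. Of the 15 genes, chosen by their call with these clusters included, 14 had the same sign, the exception being Eci2 (log2 -0.19, adjusted p = 0.606). Their median log2 fold change was 0.31 in place of 0.81. Acaa2 then measured 0.291 and 0.404 in AKI and 0.783 and 0.497 in CKD. Within the Ctsk-led cells themselves Acaa2 measured 0.272 and 0.585 in AKI and 1.70 and 1.40 in CKD. The count in all macrophage-like cells was 0 without AKI 1 and 0 without AKI 2, 23 without CKD 1 and 26 without CKD 2. In a test of the difference between macrophage-like and PT-like cells in CKD against AKI, 1 of the 37 genes passed, Acox3, against 2.34% of all genes.

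**Figure D5:**
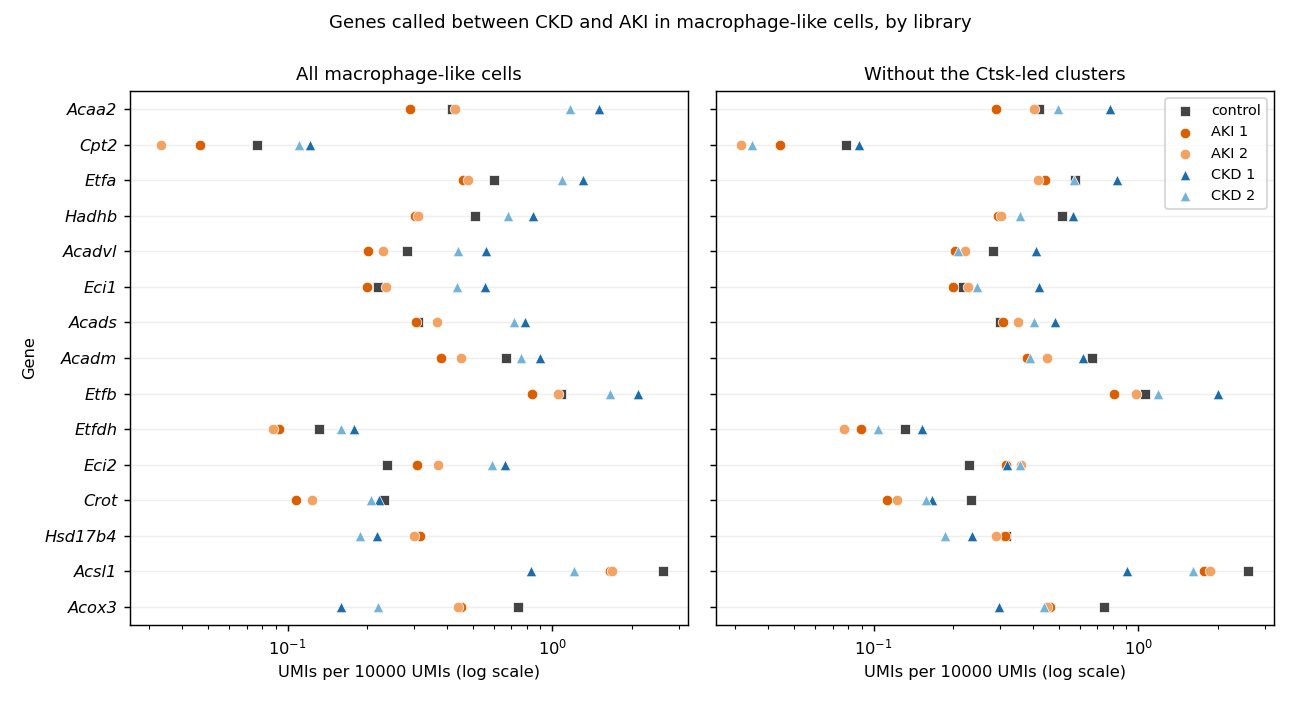
Levels (x axis, UMIs per 10000 UMIs, log scale) of the 15 genes called between CKD and AKI in macrophage-like cells (y axis), 1 point a library, over all macrophage-like cells (left) and without the Ctsk-led clusters (right). On the left both CKD libraries lie apart from both AKI libraries in every gene, and on the right they draw nearer. The genes were chosen by their call in the cells on the left, so this pattern is partly fixed by the choice.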

How the data were processed

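Whole kidneys of 5 libraries (1 control, 2 AKI, 2 CKD) were profiled by droplet RNA sequencing. The values are raw UMI counts per gene and barcode, as deposited: the authors' processing notes name Cell Ranger 7.2.0, STAR and GRCm39, whereas file headers name an earlier Cell Ranger for AKI and CKD and the mm10 build for the control, so the pipeline may differ between groups. Groups came from the labels.

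Barcodes with under 200 genes or over 30% mitochondrial UMIs were removed, as were doublets scored against simulated pairs (0.8% per 1000 cells). Cells were clustered (3000 variable genes, 40 components, correction by library, Leiden resolution 1.5) without the oxidation genes and named by markers. The naming rule was revised after clusters were seen. UMIs were summed per class and library (at least 20 cells) and tested with edgeR 4.0.16 (TMM scaling, filterByExpr, quasi-likelihood test, Benjamini-Hochberg adjustment over all genes, threshold 0.05) in R 4.3.3, with all 3 groups in one fit. DESeq2 1.42.0 and the other alternatives are given in the closing section. Python 3.11.15 was used for clustering. Every p-value in the text is from edgeR's test unless DESeq2 is named. The fit was tested on simulated data. For CKD against control, 12% of genes changed 2-fold and 76% of those changed 4-fold were recovered. For AKI against control the simulation gave no recovered share. P-values measure the spread between libraries, and counts carry counting error besides.

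All 37 genes are described, with values per library for Ppara, Ppargc1a, called genes and paralog pairs, and at most 8 other pathway genes. Cpt1a, Acsm2, Acsm3 and Cyp4b1 were added after their values were seen. The genes and lists were chosen with earlier results of these data known.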

Additional observations from a re-analysis of the deposited data

Results flagged for a closer look

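Acox3 encodes a peroxisomal oxidase of branched chains. Of the 37 genes it alone passed the test of a different CKD against AKI change in macrophage-like and PT-like cells. In macrophage-like cells it measured 0.453 and 0.441 per 10000 in AKI and 0.158 and 0.220 in CKD, and in PT-like cells 0.477 and 0.428 in AKI and 0.573 and 0.828 in CKD. The difference between the log2 fold changes was -2.11 (SE 0.19, adjusted p = 0.0433 in edgeR's test of the difference), and 2.34% of all 14218 genes passed that test. The macrophage-like fall was -1.41 with the Ctsk-led clusters and -0.50 (adjusted p = 0.393) without them.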

How the results depend on the processing

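Genes called in PT-like cells, in DCT-like and TAL-like cells in AKI and in macrophage-like cells in CKD against AKI were followed through the alternatives to filters, scaling, tool and libraries, and none of them reversed its direction there. Genes that were not called, and the other pathway genes, were not followed one by one. Within clusters, Acaa1b, not called in PT-like cells (log2 0.93 in CKD against AKI), was at -0.13 (adjusted p = 1.00) in the Miox-led one. Cyp4a14 could not be tested in the Miox-led cluster, and Eci2 changed sign in macrophage-like cells without the Ctsk-led clusters (log2 -0.19, adjusted p = 0.606). The number of the 37 genes called in PT-like cells in AKI against control (9) was 1 with cells thinned to 1000 UMIs, 5 with doublets kept, 2 in the Miox-led and 5 in the Gm26917-led cluster, and 1 to 20 when 1 library was left out. In CKD against AKI (0) it was 1 with at most 15% mitochondrial UMIs, with DESeq2, without correction by library and with the replicate block, 3 without a filter on low counts, 2 in the deep and 2 in the Gm26917-led cluster, and 0 to 5 without 1 library. In CKD against control (5) it was 15 and 9 with at most 15% and 50% mitochondrial UMIs, 0 thinned, 3 with doublets, 10 without the filter, 10 without the cluster mostly from CKD 1, 1 in the Miox-led and 9 in the Gm26917-led cluster, and 2 to 16 without 1 library. Over the other classes in CKD against AKI (17) it was 4 thinned, 46 without the filter and 1 to 85 without 1 library. Other pathway genes in PT-like cells (0) numbered 1 at 15% mitochondrial UMIs, 4 without the filter, 2 with the replicate block, 1 in each of the deep and Gm26917-led clusters and 0 to 3 without 1 library. In macrophage-like cells (15) the count was 3 thinned, 0 without the Ctsk-led clusters and 0 to 26 without 1 library. Genes differing between macrophage-like and PT-like cells (1) numbered 0 thinned, 4 with doublets, 4 without correction by library and 0 to 27 without 1 library, and between PT-like and distal tubule-like cells (0) 0 to 6. In AKI against control the count ranged from 10 to 19 in DCT-like cells (15) and from 1 to 20 in TAL-like cells (8) without 1 library. The cause was not tested.

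Same-numbered AKI and CKD libraries shared only a number, with deviations correlated at 0.126 in PT-like, 0.280 in T lymphocyte-like, -0.0001 in TAL-like and 0.161 in macrophage-like cells, so the replicate block is not a paired analysis. The comparisons within clusters, without the cluster mostly from CKD 1, without the Ctsk-led clusters and between macrophage-like and PT-like cells, and the counts under alternatives in DCT-like and TAL-like cells, were chosen after seeing the data. An injured tubule class was not run because no cluster took that name. With 1 control library, AKI and CKD against control could not be computed without it.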
